A study of Sus scrofa with 6 samples.

Results

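The genes described here encode the proteins of the cytosolic and mitochondrial ribosomes and the factors that drive translation. Their probes were taken by gene name: those starting with RPL or RPS and a digit, RPLP, MRPL, MRPS, EIF or EEF, and RPSA, without the RPS6K kinases. This rule found 56 of the 36108 names on the array, with 287 of its 43603 probes. Tested were 277 of these probes, under 54 names, whose signal was well above background on 3 or more of the arrays. The cytosolic ribosome held 207 probes of 36 gene names (200 tested), the mitochondrial ribosome 17 probes of 7 gene names (17 tested) and the translation factors 63 probes of 13 gene names (60 tested). Probes of 1 gene name are not independent measurements, and 160 of the 287 shared an exact stretch of at least 20 bases with another probe of the same name. Such a stretch was shared by 29 of the 287 with a probe of another name.

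RNA from the renal cortex of Large White pigs aged 3 months was hybridised to porcine Agilent arrays, 1 array per kidney, and all 6 kidneys came from different pigs. In the control group (n = 3), kidneys were taken out, sampled and frozen at once. In the ischemia group (n = 3), kidneys were clamped, kept warm at 37 °C for 60 min, flushed with cold University of Wisconsin solution, a fluid for organ preservation, and stored at 4 °C for 24 h. No kidney was reperfused, and warm ischemia, flush and storage cannot be told apart.

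Ribosomes are built from a small subunit, which reads the messenger RNA, and a large subunit, which joins amino acids. The cytosolic ribosome makes most proteins of the cell. The mitochondrial ribosome has its own proteins, encoded in the nucleus and imported, and makes a few core subunits of the respiratory chain. Initiation factors bring the small subunit to the messenger RNA, and elongation factors deliver transfer RNAs. Kidney tubules use much energy for transport, are rich in mitochondria and are sensitive to a lack of oxygen.

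The probes are 60 bases long and were printed on the array as single strands. The following are shown because the results turn on them. For RPS15, a small subunit protein of the cytosolic ribosome, probes designed on 2 different records behaved differently, as described further on. The first sequence is a whole probe on the RefSeq mRNA. The other lines are stretches of 30 bases from probes on a cDNA clone that the array also names RPS15. Capitals mark the 22 bases that 4 overlapping clone probes share.
RPS15 A_72_P740872: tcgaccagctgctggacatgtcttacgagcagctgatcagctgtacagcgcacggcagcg
RPS15 A_72_P560059: gaaaGGTGGTAGTTCCACAATGTTATgaat
RPS15 A_72_P501932: GGTGGTAGTTCCACAATGTTATgaatgtat
RPS15 A_72_P603948: aagaattctattcctggtggttgccagggg
RPS15 A_72_P611893: ctgttacaacagttatccatttggcttttg

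For RPL11, a large subunit protein, a whole probe on the RefSeq mRNA is followed by a stretch of the dim probe on a cDNA clone, in which capitals mark the hexamer AATAAA, a common polyadenylation signal.
RPL11 A_72_P734111: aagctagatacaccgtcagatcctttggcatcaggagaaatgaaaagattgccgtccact
RPL11 A_72_P788989: ctgttctgaaaaAATAAAaatctgttctct

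For MRPL52 and MRPL18, large subunit proteins of the mitochondrial ribosome, stretches of 30 bases are shown. Capitals mark bases that overlapping probes share (50 bases in all for both overlapping MRPL52 probes, 38 bases for 3 MRPL18 probes).
MRPL52 A_72_P028026: AATCCAAAGGGGCTCTACTTCAGAACCCAC
MRPL18 A_72_P709800: CGTGAGAGAAGTGTCTGAGAAAAGCTGTTG

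For the elongation factor EEF1A1 and the initiation factor subunit EIF3E, a whole probe each is shown, since all their probes lay on the same side of 0.
EEF1A1 A_72_P726201: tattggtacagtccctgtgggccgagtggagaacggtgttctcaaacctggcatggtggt
EIF3E A_72_P558944: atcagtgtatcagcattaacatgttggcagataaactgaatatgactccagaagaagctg

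The hexamer AATAAA, searched on both strands, stood on the probe strand in 39 of the 287 probes (13.6%) against 9.60% of all probes on the array. On the opposite strand it stood in 6 (2.09%) against 4.17% of all probes, and all 6 were among the 63 factor probes (9.52%). By group it was found on the probe strand in 34 of 207 cytosolic ribosome probes, 3 of 17 mitochondrial ribosome probes and 2 of 63 factor probes.

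Between 52.6% and 61.4% of the spots on an array were well above background, no spot was saturated, and arrays correlated at 0.960 to 0.983 with each other. Precision is limited by the number of arrays. Each of 3 slides carried 1 control and 1 ischemia array: slide 1 held control 1 and ischemia 2, slide 2 held control 2 and ischemia 3, and slide 3 held control 3 and ischemia 1. Control arrays were always at slide position 4 and ischemia arrays at position 3, and the effects of position and of group cannot be told apart. Of the fixed marker lists, 6 of 10 proximal tubule genes were measured, all 6 lower after ischemia, 5 of them at an unadjusted limma p under 0.05, with a median log2 difference of -0.74. Their summed level, in multiples of each array's 75th percentile, was 386 to 574 on control and 266 to 317 on ischemia arrays. In a bulk sample, fewer cells of a type and less RNA per cell cannot be told apart, and the part of this shift in the results below was not tested. Of the 9 other marker lists 8 had a tested gene. Of their 21 tested genes 11 were higher and 10 lower. An unadjusted limma p under 0.05 was found for 2 of the higher and 4 of the lower ones. Both podocyte genes (median 0.38) and both genes of the loop and distal tubule (0.34) were higher. Of these, PODXL (0.08 ± 0.24) and SLC12A1 (0.08 ± 0.20) differed little. Both collecting duct genes (median -0.35) and both hepatocyte genes (-0.94) were lower. Of the hepatocyte genes, ALB lay far below the arrays' 75th percentile. Its log2 values relative to it were -3.43, -4.54 and -4.11 in control and -4.54, -4.79 and -6.04 in ischemia kidneys. APOA1 differed by -2.01, -0.77 and 0.40 within slides 1 to 3. The endothelium, leukocyte, fibroblast and skeletal muscle lists had genes in both directions.

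None of the 277 tested probes passed at a limma adjusted p under 0.05, against 1 of 25017 on the whole array (0.004%). The smallest adjusted p among them was 0.751. At an unadjusted limma p under 0.05, 3 probes were higher after ischemia (2 of MRPL52, 1 of RPL11) and 0 were lower, 1.08% of the tested members. Over all probes 2.99% were higher and 3.3% lower, 6.29% in either direction. With slide as a block, 2 probes were higher (MRPL52 and RPL11) and 0 lower, against 3.65% higher and 5.62% lower of all probes. All ischemia values lay above all control values in 7 member probes, of EIF4A3, MRPL18, MRPL52 and RPL11, which is 2.53% against 5.93% of all probes. They lay below in 3, of RPL32 and RPLP1, which is 1.08% against 5.02%. On all 3 slides the ischemia array was the higher for 29 member probes (10.5%, against 13.1% of all probes) and the lower for 15 (5.42%, against 16.6%). By each of these pooled counts the members' share was below that of the whole array. Of the tested members 2.89% were dim, as defined below, against 56.6% of all tested probes, and shares among bright probes were not computed. The mitochondrial ribosome alone was above the whole array on the counts of higher probes. In the values deposited by the authors, 23.8% of the members were higher at an unadjusted limma p under 0.05, against 12.4% of all probes.

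**Figure D1:**
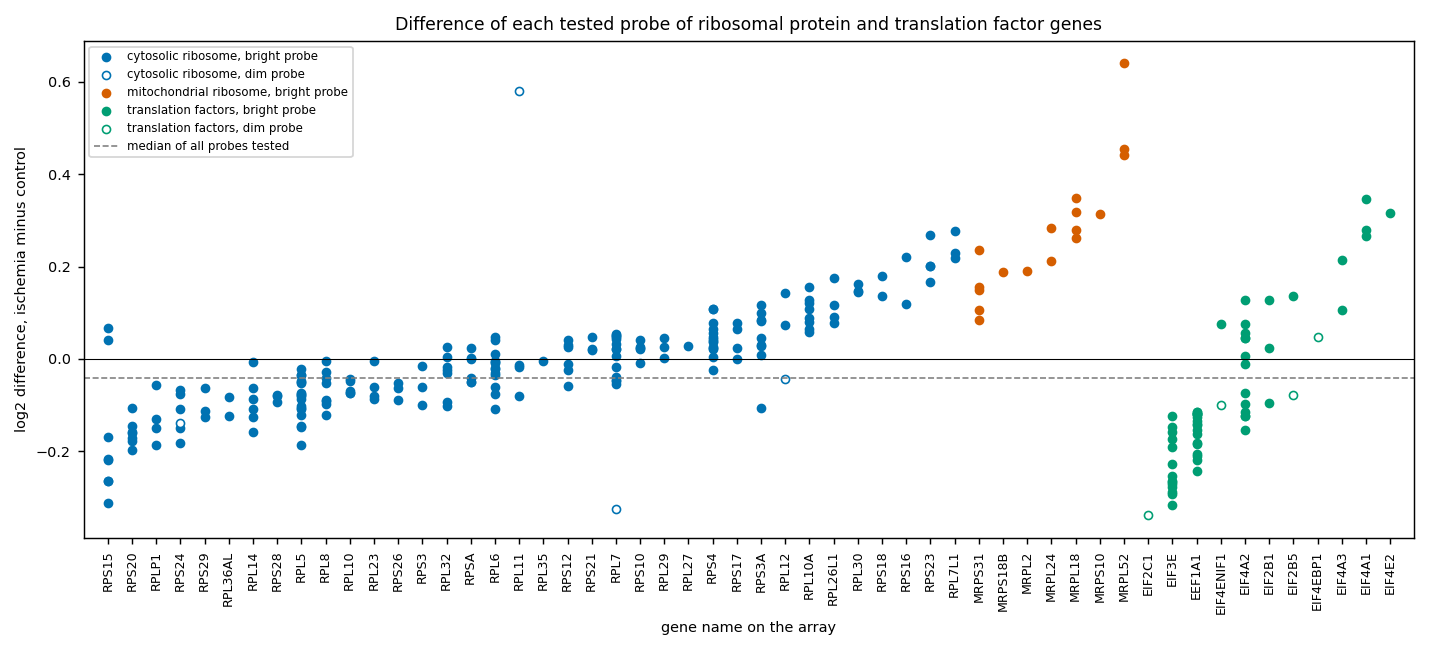
Log2 difference, ischemia minus control, of each of the 277 tested probes (points), by gene name and ordered within each group by the gene's median probe. Filled points are bright probes, open points dim ones, and the dashed line is the median of all probes tested, -0.04. All 17 mitochondrial ribosome probes lie above 0, and the points of RPS15 and RPL11 split into separate sets.

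Signals are given as log2 of the processed signal minus the array's 75th percentile, so 0 is the 75th percentile of an array, and a probe is called dim where its mean over the 6 arrays is below 0. Differences are ischemia minus control on this scale, with the standard error (SE) of the limma fit and n = 3 per group. The median difference over all 25017 probes was -0.04 with this scaling and 0.11 with each array centred on its median. Median centring only changes the constant taken from each array, so it moves the differences of all probes together. Group medians are therefore also given relative to all probes. Only 8 of the 277 tested probes were dim, and none of these belonged to the mitochondrial ribosome. GC content did not separate them: the median was 43.3% for bright probes and 45% for dim ones. Of the tested probes on RefSeq mRNAs 209 were bright and 1 was dim, of those on Ensembl transcripts 47 and 3, and of those on cDNA clones or ESTs 13 and 4.

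The cytosolic ribosome as a group had a median difference of -0.02 over 200 probes, 86 higher and 114 lower, with a range of -0.33 to 0.58. This is 0.02 above the median of all probes. Of all 25017 probes 14161 were dim, however, and among bright probes the cytosolic ribosome lay 0.03 below the whole array, at -0.02 against 0.01. Over 36 gene names, each by its brightest probe, the median was -0.01, with 17 higher and 19 lower. The large subunit (112 probes) stood at -0.03 and the small subunit (88 probes) at 0.01. Of all probes on the array, 44.3% were above 0 and 55.7% below, and 43.0% of the cytosolic ribosome probes were above 0. With median centring the split was 184 higher and 16 lower, with quantile normalization 137 and 63, and with normexp background correction 115 and 85. Relative to all probes, the group median was 0.02 above with median centring as with the main scaling. Above the median of all probes lay 114 of the 200 probes with median centring and 115 with the main scaling. It was 40 and 160 with array weights, and 43 of 44 probes were higher in the authors' deposited table, where the median was 0.21 against 0.14 over all probes. The arrays spread more than the groups did. The median signal over the 200 probes was 7.32, 7.18 and 6.84 on control arrays 1 to 3 and 6.86, 7.09 and 7.40 on ischemia arrays 1 to 3. Control 1 and ischemia 3 were the highest, control 3 and ischemia 1 the lowest, and the groups overlapped. Within the slides the median differences were -0.15, 0.18 and -0.04, so the sign changed between slides. Without ischemia 1, 180 of the 200 probes were above 0, and without control 3 only 27 were.

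**Figure D2:**
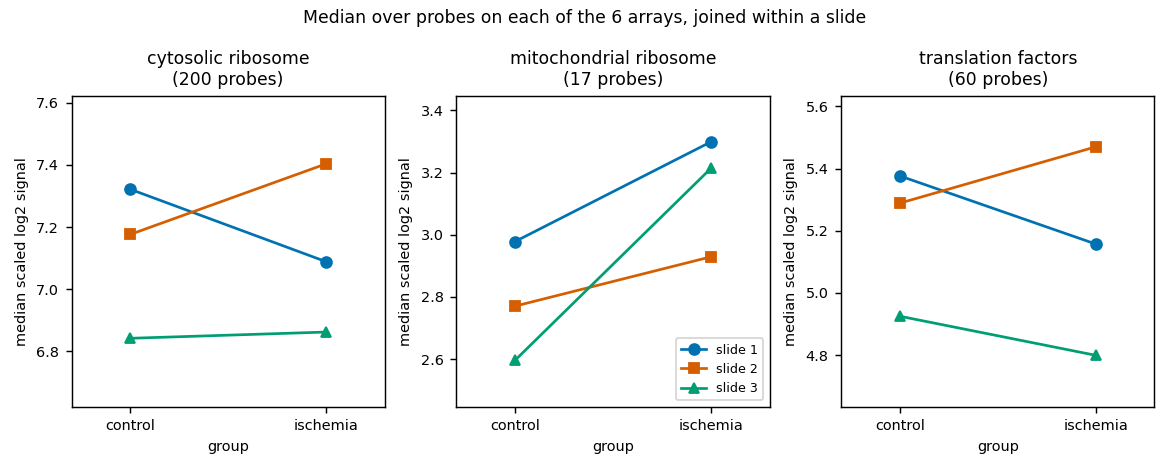
Median scaled log2 signal over the tested probes of each group (vertical axis) on each of the 6 arrays, with control and ischemia arrays of a slide joined by a line. The lines of the cytosolic ribosome and of the factors run in different directions between slides, and those of the mitochondrial ribosome all rise.

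Among large subunit proteins, the acidic stalk protein RPLP1, which helps to recruit elongation factors, had 4 probes, all below 0 (-0.19 to -0.06). Its brightest probe read 9.58, 9.40 and 9.35 on control arrays and 9.02, 9.49 and 9.37 on ischemia arrays. The groups overlapped, and the low value was ischemia 1. The difference was -0.15 ± 0.21 (SE; limma adjusted p = 0.945), and it turned to 0.0019 with median centring and 0.06 with quantile normalization. Of its other probes, A_72_P709637 read 8.97, 8.90 and 8.94 against 8.60, 8.83 and 8.83, without overlap, a difference of -0.19 ± 0.18. That probe shared at least 20 bases with a probe of a predicted gene described as like 60S acidic ribosomal protein P1. RPL32 had 7 probes, 2 above and 5 below 0 (-0.10 to 0.03). Its brightest read 8.73, 8.72 and 8.77 in control and 8.50, 8.72 and 8.69 in ischemia kidneys, with the nearest control and ischemia arrays equal at this precision. RPL14 had 6 probes, all below 0 (-0.16 to -0.01), with a difference of -0.16 ± 0.24 at the brightest. The higher large subunit names were RPL7L1 and RPL26L1, whose names mark them as like RPL7 and RPL26, and RPL30. RPL7L1 read 5.39, 5.20 and 5.06 against 5.24, 5.78 and 5.28, a difference of 0.22 ± 0.23, with ischemia the higher on all slides (0.40, 0.08 and 0.18) while the groups overlapped. RPL26L1 differed by 0.18 ± 0.21 and RPL30 by 0.14 ± 0.20. All 3 probes of RPL7L1, all 4 of RPL26L1 and all 3 of RPL30 were above 0. The limma adjusted p of the large subunit names given here lay between 0.940 and 0.954.

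Genes with many probes showed how closely probes of a name tracked each other. The 18 probes of RPL5, which binds the 5S RNA of the large subunit, all lay below 0 (-0.19 to -0.02). This direction depended on the scaling. Above 0 lay 17 of them with median centring and 5 with quantile normalization or normexp, and the 1 RPL5 probe of the authors' deposited table was higher. Above the median of all probes lay 3 of the 18 with the main scaling and with median centring, 5 with quantile normalization and 11 with normexp. The 14 bright probes of RPL7 lay between -0.05 and 0.05, and the 13 of RPL6 between -0.11 and 0.05. A dim RPL7 probe on an Ensembl transcript, A_72_P255762, read -0.70, -0.72 and -0.63 in control and -1.25, -1.05 and -0.72 in ischemia kidneys, a difference of -0.33 ± 0.21 (limma adjusted p = 0.903). It lay outside the range of the other RPL7 probes.

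In the small subunit, RPS23, a protein of the decoding centre, read 8.41, 8.42 and 8.59 in control and 8.57, 8.60 and 8.86 in ischemia kidneys. Control 3 overlapped the ischemia values. Its difference was 0.20 ± 0.19 (limma adjusted p = 0.938), and its 4 tested probes were all above 0 (0.17 to 0.27). RPS18 (0.14 ± 0.19) and RPS16 (0.12 ± 0.22) had both tested probes above 0. On the other side, RPS20 read 9.57, 9.44 and 9.17 against 8.93, 9.26 and 9.51, a difference of -0.16 ± 0.23 with 7 of 7 probes below 0. Its sign followed the slide (-0.31, 0.07 and -0.24). RPS29 (-0.11 ± 0.23) and RPS28 (-0.08 ± 0.26) had 3 of 3 tested probes below 0. The differences of RPS20, RPS29 and RPS28 were above 0 with quantile normalization, and those of RPS29 and RPS28 also with median centring. RPSA, which doubles as a laminin receptor, had 3 probes above and 3 below 0 (-0.05 to 0.02), and RPS3, which also works in DNA repair, differed by -0.06 ± 0.25. These values are all smaller than or close to their standard errors.

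RPS15 split by the record its probes were designed on. The RefSeq probe A_72_P441728 read 8.01, 7.77 and 7.28 in control and 7.47, 7.99 and 7.79 in ischemia kidneys, a difference of 0.07 ± 0.26. The RefSeq probe A_72_P740872, printed above, read 4.29, 4.03 and 3.50 against 3.77, 4.14 and 4.02, a difference of 0.04 ± 0.26. Both were lowest on control 3. The clone probe A_72_P560059 read 6.22, 5.71 and 5.79 in control and 5.30, 5.15 and 6.47 in ischemia kidneys. Here ischemia 3 was the highest array and ischemia 1 and 2 the lowest. Its difference was -0.27 ± 0.37, and those of the 6 clone probes lay between -0.31 and -0.17. Within the slides this probe differed by -1.07, 0.76 and -0.49, against -0.15, -0.01 and 0.28 for A_72_P740872. Across the 6 arrays, which all probes share, the RefSeq probes correlated with each other at 0.983 and the clone probes among themselves at 0.933 to 0.994 (15 pairs). Between the records the correlation was 0.0206 to 0.423 (12 pairs). These are descriptions over 6 arrays, and whether the clone carries RPS15 sequence was not tested. Without ischemia 3, 5 member probes were lower at an unadjusted limma p under 0.05, all of them named RPS15 (1.81% of the members, against 3.76% of all probes). Without ischemia 2, 4 of the 6 clone probes lay above 0.

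RPL11, which in its free form binds the p53 regulator MDM2, also had a probe that stood apart. The probe A_72_P041441, the brightest, read 8.73, 8.63 and 8.42 in control and 8.20, 8.67 and 8.67 in ischemia kidneys, a difference of -0.08 ± 0.22, and the other bright probes differed by -0.02 and -0.01. The dim clone probe A_72_P788989 read -1.21, -1.01 and -0.76 in control and -0.45, -0.61 and -0.17 in ischemia kidneys. Here all ischemia values were above all control values. The difference was 0.58 ± 0.22 (limma adjusted p = 0.751), and within the slides it was 0.60, 0.84 and 0.31. RPL11 as measured by its 3 bright probes did not share this difference.

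**Figure D3:**
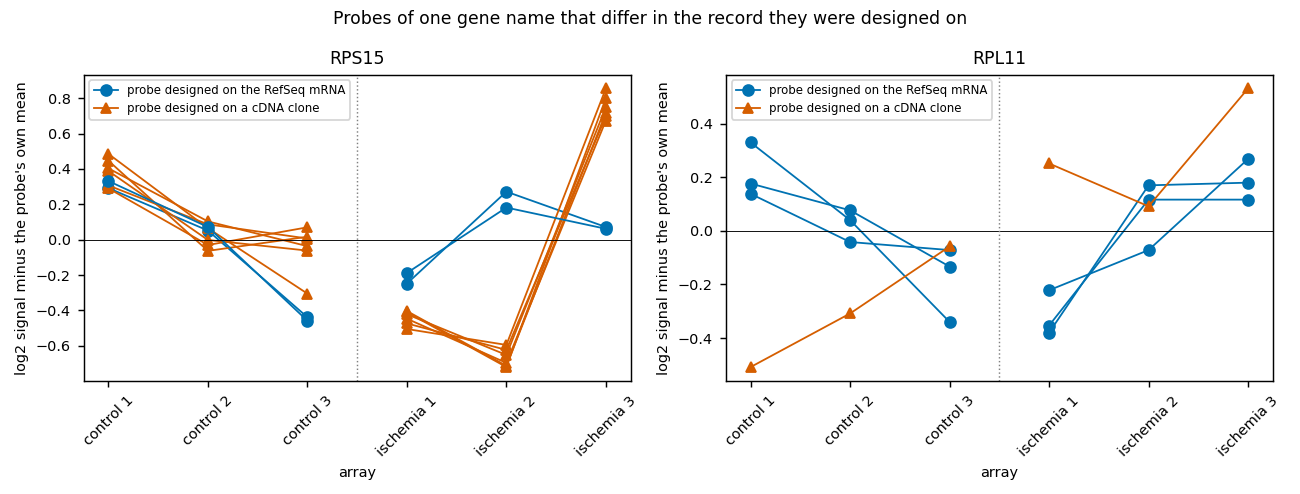
Log2 signal of each tested probe of RPS15 (left) and RPL11 (right) on the 6 arrays, minus the probe's own mean. Lines join the values of 1 probe within a group, and colours give the record the probe was designed on. For RPS15 the clone probes peak on ischemia 3, and for RPL11 the clone probe is above the RefSeq probes on ischemia 1 and below them on control 1.

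All 17 probes of the mitochondrial ribosome lay above 0, from 0.08 to 0.64, with a median of 0.26, which is 0.30 above the median of all probes and 0.25 above that of all bright probes. The 7 gene names, each by its brightest probe, were all above 0 as well, with a median of 0.21. Only 2 of the 17 probes, both of MRPL52, were higher at an unadjusted limma p under 0.05 (11.8%, against 2.99% of all probes), and none passed the adjusted test. The number of probes above 0 was 17 of 17 with each of the scalings of the scanner values and 7 of 7 in the authors' deposited table, and the group median lay 0.23 to 0.36 above that of all probes. It was 16 without control 3 and 15 without ischemia 2. The median signal over the 17 probes was 2.98, 2.77 and 2.60 on control and 3.21, 3.30 and 2.93 on ischemia arrays. Control 1 exceeded ischemia 3, so the groups overlapped. The median of the differences within each slide was 0.32, 0.01 and 0.46, the value of slide 2 being the lowest. Over all probes these medians were -0.01, -0.10 and 0.01, so relative to all probes the group stood at 0.33, 0.11 and 0.45. The ischemia array was the higher on all slides in 8 of the 17 probes, 4 of MRPL18, 3 of MRPL52 and 1 of MRPL24 (47.1%, against 13.1% of all probes). All ischemia values lay above all control values in 5, of MRPL18 and MRPL52 (29.4%, against 5.93% of all probes). These shares count overlapping probes of 1 gene name separately. With 1 probe per gene name, 0 of the 54 tested names were higher at an unadjusted limma p under 0.05 (2.64% over all names). The 17 probes were also all bright, whereas 56.6% of all tested probes were dim. The large subunit (10 probes) had a median of 0.30 and the small subunit (7 probes) of 0.16.

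MRPL52 had the lowest p among the named genes. Its brightest probe, A_72_P028026, read 2.68, 2.77 and 2.55 in control and 3.21, 3.19 and 2.92 in ischemia kidneys, with every ischemia value above every control value. The difference was 0.44 ± 0.19 (limma adjusted p = 0.806), a signal 1.36 times that of control, and within the slides it was 0.51, 0.15 and 0.67. The unadjusted limma p of this brightest probe was 0.053, so the 2 MRPL52 probes at p under 0.05 were the other ones. The overlapping probe A_72_P651862 differed by 0.45 ± 0.19. The remaining MRPL52 probe, A_72_P478148, had the largest difference of the mitochondrial ribosome, 0.64. It also had the smallest limma adjusted p of a member with array weights, 0.136. With each array left out in turn, the brightest probe differed by 0.38 to 0.54.

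MRPL18, a protein that is also known to bind 5S RNA, had 4 probes between 0.26 and 0.35. The brightest read 5.54, 5.28 and 5.23 in control and 5.51, 5.86 and 5.48 in ischemia kidneys, where control 1 overlapped the ischemia range. Its difference was 0.26 ± 0.21 (limma adjusted p = 0.920). The overlapping probe A_72_P748391, which holds the MRPL18 stretch printed above, read 4.71, 4.56 and 4.72 against 4.94, 5.15 and 4.74, without overlap, a difference of 0.28 ± 0.20. MRPL24 read 5.77, 5.61 and 5.47 against 5.79, 6.09 and 5.60 (0.21 ± 0.21). MRPL2 read 2.85, 2.47 and 2.12 against 2.66, 2.90 and 2.45, with the control values spread more widely than the group difference of 0.19 ± 0.25. Of the small subunit, MRPS10 read 2.72, 2.70 and 2.22 against 2.79, 3.09 and 2.69, a difference of 0.31 ± 0.23 that was absent on slide 2 (0.37, -0.01 and 0.58). MRPS18B differed by 0.19 ± 0.29, with a low control 3 (1.39, 0.94 and 0.31 against 0.99, 1.17 and 1.04), and fell to -0.10 without that array. MRPS31 had 5 probes between 0.08 and 0.24, and its brightest differed by 0.11 ± 0.22.

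**Figure D4:**
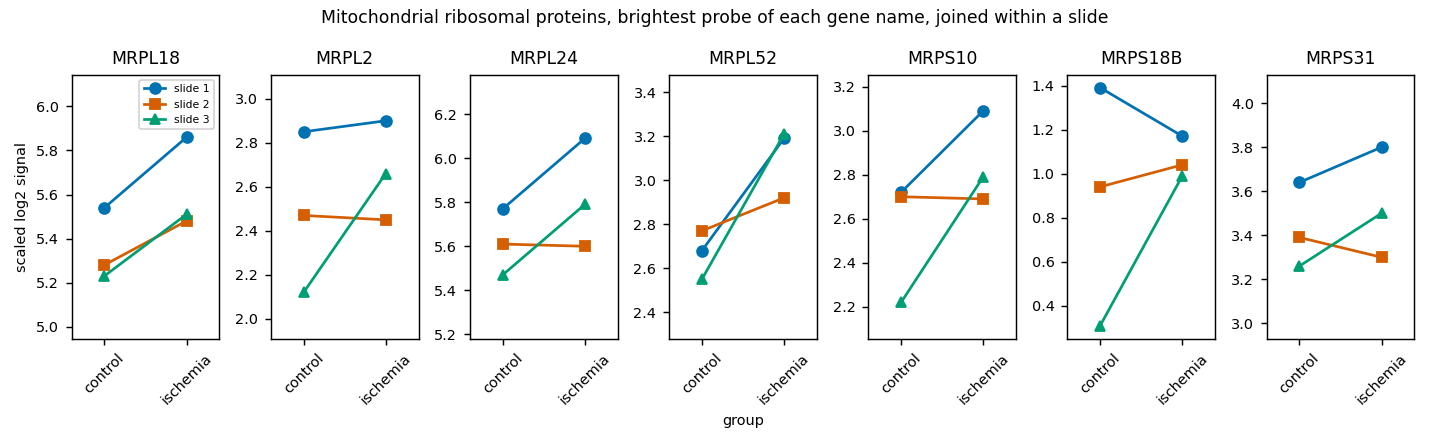
Scaled log2 signal of the brightest probe of each of the 7 mitochondrial ribosomal protein names in control and ischemia kidneys, with the arrays of a slide joined by a line. Slides 1 and 3 rise in most panels, slide 2 changes least in every panel, and only MRPL52 shows no overlap between groups.

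Further probes on the array are tied to ribosomal proteins only by their description, in part a match to a protein of a distant species, and include proteins already among the members. They were looked up after the values of the members were known. For the mitochondrial ribosome, 19 of 27 such probes were tested, 13 higher and 6 lower, with a median of 0.10 (-0.19 to 0.40) and medians within slides of 0.17, -0.21 and 0.32. None was at an unadjusted limma p under 0.05 in either direction, against 6.29% of all probes. Of the 15 bright ones, 12 were higher and 3 lower, with a median of 0.14, and of the 4 dim ones 1 was higher and 3 lower. A dim one of the lower, A_72_P512731, matches the opposite strand of an MRPL24 probe. The direction of the 17 named probes, all bright, was thus not shared by every probe described as a mitochondrial ribosomal protein. For the cytosolic ribosome, 59 of 80 such probes were tested, 27 higher and 32 lower, with a median of -0.01 (-0.71 to 0.79). Of 43 bright ones 23 were higher and of 16 dim ones 4. At an unadjusted limma p under 0.05, 1 of the 59 was higher and 0 lower, against 2.99% and 3.3% of all probes. The higher one was a dim probe described as 60S protein L35a, A_72_P355613. It read -3.10, -3.52 and -3.22 in control and -2.35, -2.81 and -2.44 in ischemia kidneys, a difference of 0.75 ± 0.22. All its ischemia values lay above all control values, as in 5.93% of all probes. The highest, a dim probe described as 40S protein S9, differed by 0.79 ± 0.34. The lowest were 2 bright probes described as fragments of 60S protein L13a. The lower of them, A_72_P149151, read 6.81, 6.78 and 6.13 in control and 5.26, 5.99 and 6.34 in ischemia kidneys, a difference of -0.71 ± 0.33.

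The translation factors had a median of -0.12 over 60 probes, 17 higher and 43 lower. This is 0.08 below the median of all probes, and the bright ones lay 0.14 below all bright probes. The sign depended on the scaling: the median was 0.03 with 38 of 60 probes above 0 under median centring. Relative to all probes it was still 0.08 below there, but 0.11 above over the 12 probes of the authors' deposited table. That table held only 1 probe each of EEF1A1 and EIF3E, so it differs in its probes as well as in its processing. The negative median also rested on genes with many probes, since 18 probes were of EEF1A1 and 14 of EIF3E and all 32 lay below 0. The 28 remaining probes had a median of 0.04, with 17 higher and 11 lower, and over 11 gene names the median was 0.05, with 7 higher. The median signal of the 60 probes was 5.38, 5.29 and 4.92 on control and 4.80, 5.16 and 5.47 on ischemia arrays, in the same order of arrays within each group as for the cytosolic ribosome.

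EEF1A1, which carries aminoacyl transfer RNAs to the ribosome and is among the most abundant messenger RNAs of most cells, read 9.69, 9.46 and 9.28 in control and 8.95, 9.29 and 9.57 in ischemia kidneys at its brightest probe. Ischemia 3 and, narrowly, ischemia 2 lay above control 3, so the groups overlapped. The difference was -0.21 ± 0.23 (limma adjusted p = 0.944), and within the slides it was -0.40, 0.11 and -0.33. All 18 probes lay below 0 (-0.24 to -0.11), but 10 lay above 0 with median centring and 7 with quantile normalization, and 11 without control 1 or without ischemia 1. Above the median of all probes lay 0 of the 18 with the main scaling and with median centring, and 7 with quantile normalization. Its 1 probe in the authors' deposited table was at 0.06, against 0.14 over all probes. EIF3E, a subunit of the initiation factor that holds the small subunit before joining, read 6.17, 6.10 and 5.85 against 5.32, 5.73 and 6.24. Here ischemia 3 was the highest of all arrays. The difference was -0.28 ± 0.27 (limma adjusted p = 0.940), with slides at -0.44, 0.14 and -0.53 and its 14 probes between -0.32 and -0.12. With median centring 2 of the 14 were above 0, but 0 were above the median of all probes, as with the main scaling. Without control 1, 1 of the 14 lay above 0, and without ischemia 1, 3 did. Its 1 probe in the authors' deposited table was at 0.08, against 0.14 over all probes. The EIF3E probe A_72_P621831 shared at least 20 bases with a probe that the array names TPM2, a tropomyosin, and differed by -0.17 ± 0.31.

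The helicase EIF4A unwinds the 5′ end of messenger RNAs for initiation. EIF4A1 read 2.61, 2.29 and 2.06 in control and 2.42, 2.88 and 2.49 in ischemia kidneys. The groups overlapped, with ischemia the higher on all slides (0.27, 0.20 and 0.36). The difference was 0.28 ± 0.24 (limma adjusted p = 0.930), and all 3 probes were above 0 (0.27 to 0.35). EIF4A3, the related helicase of the exon junction complex, read 4.40, 4.27 and 4.11 against 4.45, 4.52 and 4.45, without overlap, a difference of 0.21 ± 0.18. EIF4A2 had 13 probes, 6 above and 7 below 0 (-0.15 to 0.13), with 0.04 ± 0.23 at the brightest. Whether EIF4A1 and EIF4A2 differ in response was not tested.

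EIF4E2, a cap-binding protein related to EIF4E that can block initiation, read 1.70, 1.45 and 1.18 in control and 1.62, 2.03 and 1.63 in ischemia kidneys. Control 1 overlapped the ischemia values, and the difference was 0.32 ± 0.23 (limma adjusted p = 0.908) on 1 probe. EIF4EBP1, the repressor of EIF4E that mTOR phosphorylates, was dim and differed by 0.05 ± 0.19. EIF4ENIF1, which carries EIF4E into the nucleus, had a bright probe at 0.08 ± 0.22 and a dim one at -0.10 ± 0.22. Of the exchange factor for EIF2, EIF2B1 had 3 probes at -0.10, 0.02 and 0.13, each with its lowest ischemia value on ischemia 3, and EIF2B5 had a bright probe at 0.14 and a dim one at -0.08. EIF2C1, an older symbol of an Argonaute gene that acts in microRNA silencing and not in initiation, was dim: it read -3.05, -2.99 and -2.65 against -3.60, -2.83 and -3.27, a difference of -0.34 ± 0.26 (limma adjusted p = 0.914).

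Other genes of the pathway were taken from fixed lists of symbols. Of 24 genes of ribosome assembly, 5 had a tested probe, and all 5 were above 0 with a median of 0.32. They included GNL3, a nucleolar GTPase, at 0.39 ± 0.21, PES1, needed for large subunit maturation, at 0.38 ± 0.22, and DKC1, the pseudouridine synthase of ribosomal RNA, at 0.32 ± 0.24. Of 29 genes that control translation, 14 were tested, 12 above and 2 below 0, with a median of 0.17. Here the stress transcription factor ATF4, whose messenger RNA is translated when EIF2 is phosphorylated, differed by 0.42 ± 0.27, with 1.09 of it on slide 2 and 0.15 and 0.03 on slides 1 and 3. The kinase MTOR differed by 0.30 ± 0.19 and was higher on all slides (0.39, 0.18 and 0.33), and PABPC1, the poly(A)-binding protein, stood at -0.21 ± 0.22. The 14 genes ranged from TPT1 at -0.22 ± 0.21 to DDIT3 at 0.56 ± 0.28 and DDIT4 at 0.56 ± 0.46. On slide 3, DDIT3 and DDIT4 were below 0 (-0.08 and -0.57). Of 16 genes of mitochondrial translation 5 were tested, with 3 above and 2 below 0 and a median of 0.03, and the mitochondrial ribosomal protein DAP3 stood at 0.17 ± 0.21. Of 20 cytosolic transfer RNA synthetases 4 were tested, with 3 above and 1 below 0 and a median of 0.11. In all 4 lists, 0 genes passed the adjusted limma test and 0 were at an unadjusted p under 0.05. Over all 25017 probes, 44.3% were above 0 and the median was -0.04.

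The 10 member probes that were not tested were 2 of EIF2C2 and 2 of RPS23 and 1 each of RPS16, RPS26, RPS28, RPS29, RPL32 and EIF4GI. Apart from the EIF2C2 probes and RPS26, they were designed on cDNA clones or ESTs. EIF2C2 and EIF4GI, an older form of the name of the scaffold of the cap complex, had no other probe, so no comparison is given for them. RPS16, RPS23, RPS26, RPS28, RPS29 and RPL32 had bright probes, described above or within the range of the small subunit.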

How the data were processed

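Values came from the scanner file of each of the 6 arrays. Per the file headers, the authors' deposited spot intensity was background-subtracted and detrended array by array in Agilent Feature Extraction 10.10.1.1, without scaling across arrays. The submitters' processing notes list limma, R 2.15.2 and Feature Extraction 11.5.1.1. A table of log2 values, also deposited by the authors, served only as an alternative, with 63 of the tested member probes, since its normalization is not given in these sources.

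Log2 of the processed intensity minus each array's 75th percentile was used, without control and outlier spots, and spots of a probe were averaged. Probes well above background on at least 3 arrays, with a value on at least 5, were tested (25017 of 43603). The groups were compared by two-sided limma tests (version 3.58.1 under R 4.3.3, with lmFit, eBayes and Benjamini-Hochberg adjustment over all tested probes), without a block, and the procedure was tested on simulated data. The labels name separate pigs for the kidneys. With 3 arrays per group the smallest p of an exact permutation test is 0.1, and no such test was run. The sample numbers were not taken as pairs (correlations of deviations -0.35, -0.17 and -0.05 for equal numbers). The arrays of a slide deviated together (0.34, 0.10 and 0.33 for slides 1 to 3), and counts with slide as a block are given beside the main ones.

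A gene name was represented by its brightest probe. Named were, of each subunit and factor class, the 3 names of smallest p in each direction, and a fixed list of names, with further members described by ranges. The members, lists and names were chosen with earlier results of these data known. Alternatives were other scalings, background correction, filters, outlier spots kept, blocks by slide or sample number, a variance trend, array weights, 1 probe per name and each array left out in turn. Probe sequences are from the scanner files, and no genome was used.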

Additional observations from a re-analysis of the deposited data

Results flagged for a closer look

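Of the 10 member probes that were too dim to test, 3 were well above background on ischemia arrays and on no control array. The EIF4GI probe A_72_P298619 was well above background on 2 ischemia arrays, ischemia 1 and 3. Its values were -4.67, -4.17 and -5.01 in control and -4.14, -4.43 and -4.08 in ischemia kidneys, so the groups overlapped. The RPS16 probe A_72_P758712 was well above background on 1 ischemia array, ischemia 1, at -3.43, against -5.80, -4.32 and -4.30 in control kidneys. The RPL32 probe A_72_P764416 was well above background on 1 ischemia array, ischemia 1, at -4.62, against -5.78, -4.40 and -4.48 in control kidneys, of which 2 were higher. The brightest probes of RPS16 and RPL32 differed by 0.12 and -0.10.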

How the results depend on the processing

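No member probe passed the adjusted limma test under any of the 18 alternatives, where the smallest adjusted p of a member was 0.136 (MRPL52, array weights), against 0.751 in the main comparison. At an unadjusted limma p under 0.05 the higher members numbered 3 of 277 (all probes 2.99%), which became 6 with normexp (all probes 3.18%), 15 of 63 with the deposited table (all probes 12.4%), 0 of 287 without a filter on dim probes (1.81%), 6 with array weights (7.63%), 0 of 54 with 1 probe per gene name (2.64%) and 0 to 3 with an array left out (1.46% to 4.16%). The lower members numbered 0 (all probes 3.3%), which became 1 with array weights (EIF3E; all probes 11.1%) and 0 to 5 with an array left out (1.74% to 8.77%). Probes called over the whole array numbered 1, which became 11 with median centring, 0 with quantile normalization, 3 with normexp, 3 with the deposited table, 0 without a filter, 3 for probes well above background on all 6 arrays, 0 with slide as a block, 3 with a variance trend, 21 with array weights, 0 with 1 probe per gene name and 0 to 1 with an array left out. With the replicate block, the pairing by sample number, 0 probes were called and 1 member was higher at an unadjusted p under 0.05 (all probes 2.14%). The mitochondrial ribosome median was 0.47 and the factor median 0.25 with the deposited table, in which the median of all probes was 0.14, and with an array left out they ranged from 0.14 to 0.38 and from -0.28 to 0.03. Without EIF3E and EEF1A1, an alternative added after seeing the data, the factor median was 0.04.

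Of 505 single-gene values under the alternatives, 467 kept their direction and 38 did not. Median centring moved the differences of all probes together, their median from -0.04 to 0.11. The cause of the reversals under the other alternatives was not tested. With median centring the differences were RPLP1 0.0019, RPL32 0.049, RPS29 0.040, RPS28 0.070, EIF2B1 0.055 and RPS3 0.091. With quantile normalization they were RPLP1 0.060, RPL32 0.065, RPS20 0.079, RPS29 0.048, RPS28 0.087, EEF1A1 0.040 and RPS3 0.12. With normexp RPS3 was at 0.0013 and EIF4EBP1 at -0.040. With the deposited table RPL14 was at 0.072, RPS20 at 0.080, RPS29 at 0.11, EIF2C1 at 0.054 and EIF2B1 at 0.17. With array weights RPSA was at -0.050 and EIF4A2 at -0.098. With an array left out, values on both sides of 0 were found for EIF2B1 (-0.20 to 0.038), EIF4A2 (-0.090 to 0.21), EIF4EBP1 (-0.051 to 0.16), MRPS18B (-0.095 to 0.44), MRPS31 (-0.029 to 0.22), RPL14 (-0.35 to 0.043), RPS16 (-0.032 to 0.23), RPS28 (-0.22 to 0.14), RPS29 (-0.21 to 0.066), RPS3 (-0.20 to 0.12) and RPSA (-0.13 to 0.14). Signal over background limits the 10 dim probes that were not tested, and the number of arrays limits the rest.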
